A study of Mus musculus with 6 samples.

Results

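Glycolysis in male germ cells runs partly on enzymes that other tissues lack. The genes described here, which encode sperm-specific glycolysis isozymes and their somatic counterparts, are 10 of the 36652 genes in the deposited table, found by their symbols. They comprise 6 germ cell isozymes (Aldoart1, Aldoart2, Gapdhs, Pgk2, Ldhc and Ldhal6b) and 4 genes that are active in somatic cells as well (Hk1, Gapdh, Pgk1 and Ldha). The selection used gene names and enzyme steps, with no threshold on a measured value.

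Glycolysis splits glucose into pyruvate and yields ATP without oxygen, and lactate dehydrogenase then turns pyruvate into lactate while restoring NAD+. In mouse sperm most of the later enzymes are bound to the fibrous sheath of the tail, where they supply ATP for swimming, and loss of Gapdhs, Pgk2 or Ldhc in mice impairs sperm movement and male fertility. Germ cells transcribe these isozymes from genes of their own, several of which arose as intronless copies of the somatic gene, during and after meiosis, when genes on the X chromosome are silenced.

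The libraries were made from testis RNA of 8-week-old mice, with 3 libraries labelled Ccdc117ko and 3 labelled WT. The series title links loss of Ccdc117, a gene for a coiled-coil protein, to androgen output and sperm formation. The labels give neither the kind of allele nor the strain, and they name no treatment. They do not say that the replicates are separate mice, so p-values measure only the spread between these samples, which may be technical.

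Recovered reads came to 38521519 to 39368277 in the Ccdc117ko libraries and 35791616 to 43461692 in the WT libraries. The total for Ccdc117 itself was not called lower in the libraries labelled Ccdc117ko, with a log2 fold change of -0.03 (SE 0.05, limma adjusted p = 0.763). A total per gene does not show which exons were read, so this value does not check the labels of a deletion of part of the gene. All 10 round spermatid markers were called higher in Ccdc117ko libraries, and 6 of 10 Sertoli cell markers were called lower. Of all genes tested, 6.80% were called in either direction. Shorter transcripts also had higher fold changes, with a Spearman rho of -0.41 between length and log2 fold change across 14256 protein-coding genes, which are not independent replicates. The median log2 fold change was 0.10 in the shortest length bin (204 to 1659 bases) and -0.14 in the longest. Gapdhs, Gapdh, Pgk2, Ldhc, Ldhal6b and Aldoart2 lie in the shortest bin. Values after removal of a length and GC trend are therefore given beside the uncorrected ones.

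The coding sequences show how far reads of a germ cell isozyme can be told from those of its relatives. Each pair below is the first ungapped stretch of 60 aligned coding bases whose identity is closest to that of the whole pair. The stretches are read 5′ to 3′ on the coding strand from GENCODE M21 transcripts on GRCm38, with mismatched bases in capitals.
Aldoart1: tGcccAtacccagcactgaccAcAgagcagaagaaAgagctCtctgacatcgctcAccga
Aldoart2: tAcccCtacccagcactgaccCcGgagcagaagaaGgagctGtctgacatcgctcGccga
Gapdhs: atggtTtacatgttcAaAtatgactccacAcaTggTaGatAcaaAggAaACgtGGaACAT
Gapdh: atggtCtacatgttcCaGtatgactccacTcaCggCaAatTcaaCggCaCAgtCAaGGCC
Pgk2: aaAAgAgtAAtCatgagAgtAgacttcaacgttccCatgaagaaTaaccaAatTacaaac
Pgk1: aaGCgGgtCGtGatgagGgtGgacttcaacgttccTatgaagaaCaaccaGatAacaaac
Ldhc: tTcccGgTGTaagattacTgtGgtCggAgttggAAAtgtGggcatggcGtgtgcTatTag
Ldha: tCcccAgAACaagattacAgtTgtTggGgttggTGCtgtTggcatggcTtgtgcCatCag

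Within these 60 bases the aldolase retrogenes differed at 7 positions, Pgk2 and Pgk1 at 12, Ldhc and Ldha at 16, and Gapdhs and Gapdh at 18. Over the aligned coding sequence, identity was 93.9% for Aldoart1 with Aldoa, 91.6% for Aldoart2 with Aldoa, 89.0% for Aldoart1 with Aldoart2, 79.3% for Pgk2 with Pgk1, 73.3% for Ldhc with Ldha, 70.1% for Ldhal6b with Ldha and 69.5% for Gapdhs with Gapdh. No 50-base word of Gapdhs, Pgk2, Ldhc, Ldhal6b or Hk1 occurred in another gene. Aldoart2 shared 0.3% of its words and Aldoart1 shared 5.8%, mostly with Aldoa, the parent gene. The somatic genes were less distinct, since 82.5% of the words of Gapdh, 68.0% of those of Pgk1 and 16.6% of those of Ldha also lie in other genes. How reads that match several genes were counted is not given in the sources used here, so the levels of Gapdh and Pgk1 are uncertain.

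Of the 6 germ cell isozymes, 5 ranked among the 244 highest genes per kb, while Aldoart1 stood at rank 1862, below the somatic Gapdh at rank 1115. Per kb of the longest coding transcript, Ldhc averaged 98030 ± 144 normalized counts in Ccdc117ko libraries and 90900 ± 4320 in WT libraries (SD, n = 3 each), which placed it at rank 6 of 32704 genes. Gapdhs ranked next among the members, with 46770 ± 140 per kb in Ccdc117ko libraries and 43420 ± 1380 in WT libraries. In both genotypes the mean levels per kb then ran in the order Ldha, Pgk2, Ldhal6b, Hk1, Aldoart2, Gapdh, Aldoart1 and Pgk1. Ldha and Pgk2 overlapped between libraries in both genotypes. Pgk2 with Ldhal6b, and Ldhal6b with Hk1, were apart in Ccdc117ko libraries and overlapped in WT libraries. The other neighbours in that order did not overlap in either genotype.

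**Figure D1:**
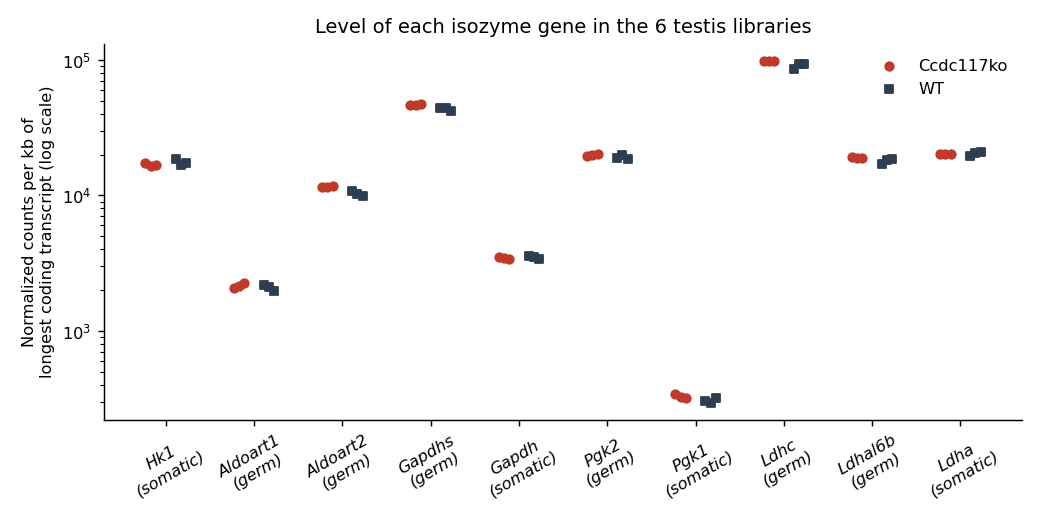
Normalized counts per kb of the longest coding transcript (log scale) for the 10 genes, with 1 point per library, 3 Ccdc117ko libraries (circles) left of 3 WT libraries (squares). Ldhc is the highest, at 98030 per kb in Ccdc117ko and 90900 in WT on average, and Pgk1 the lowest, at 328.5 in Ccdc117ko and 305.9 in WT.

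Within each of 3 pairs of a germ cell gene and its somatic counterpart, the germ cell gene held most of the transcript level. No share was computed at the aldolase step. There the higher Aldoa row averaged 18089 normalized counts in Ccdc117ko libraries and 17324 in WT libraries. Aldoart2 averaged 19263 and 17078, and Aldoart1 4412.8 and 4272.9, in the same order. These counts are not divided by transcript length, so they do not rank the aldolase genes per kb. The lactate dehydrogenase pair leaves out Ldhal6b and Ldhb. Per kb, Gapdhs made up 93.1% of the Gapdhs and Gapdh total in Ccdc117ko libraries and 92.6% in WT libraries. Pgk2 made up 98.4% of its pair with Pgk1 in Ccdc117ko libraries and 98.4% in WT libraries, and Ldhc made up 82.9% of its pair with Ldha in Ccdc117ko libraries and 81.7% in WT libraries. The shares of Gapdhs and Pgk2 rest on the uncertain levels of Gapdh and Pgk1. The 10 genes together held 1.022, 1.019 and 1.021% of all normalized counts in the Ccdc117ko libraries, against 0.978, 0.990 and 0.979% in the WT libraries. This sum did not overlap between genotypes. In whole tissue, more cells of a type and more RNA per cell cannot be told apart.

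Of the 10 genes, 1 passed the test for a genotype difference, limma on log2 normalized counts with Benjamini-Hochberg adjustment over 32783 genes and a threshold of 0.05. Across all genes tested 6.80% were called, 3.70% as higher and 3.10% as lower in Ccdc117ko libraries. All 6 germ cell isozymes had fold changes above 0, with a median log2 fold change of 0.10, against -0.01 for the 4 somatic genes and 0.00 for all genes tested. In 4 of the 10 genes, all of them germ cell isozymes, the genotypes did not overlap, against 27.0% of all genes tested and 50.3% of the 6732 genes that averaged 1000 normalized counts or more. Of those abundant genes 18.5% were called, so the members' counts were no higher than those of abundant genes at large. With length and GC corrected, the medians were 0.03 for the germ cell isozymes and 0.01 for the somatic genes. By limma none of the 10 was then called, and 1 had an unadjusted p under 0.05; without the correction 3 did, all germ cell isozymes.

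**Figure D2:**
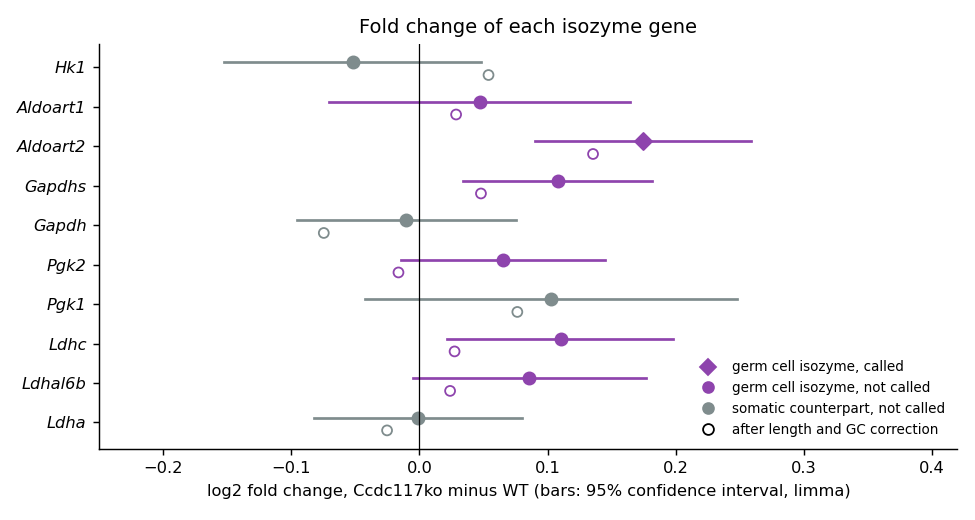
Log2 fold change (Ccdc117ko minus WT) of each gene, with bars for limma's 95% confidence interval and open circles for the value after length and GC correction. Aldoart2, the diamond at 0.17, is the called gene, and the open circles of all 6 germ cell isozymes lie left of their uncorrected values.

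Hexokinase phosphorylates glucose at the first step of the pathway. Hk1 is a somatic gene from which germ cells transcribe variants that lack the mitochondrial binding sequence, and a total per gene does not separate these variants. Hk1 (chr10:62268855-62379908, minus strand, 18 exons in the longest transcript) had 74349, 70939 and 71619 normalized counts in Ccdc117ko libraries, against 79558, 71685 and 73816 in WT libraries. The genotypes overlapped, and the highest value was that of WT replicate 1. The log2 fold change was -0.05 (SE 0.04, limma adjusted p = 0.544), with the opposite sign, 0.05, after length and GC correction. An antisense gene, Hk1os, overlaps it, and the use of strand in counting is not given in the sources used here.

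Aldolase splits fructose 1,6-bisphosphate, and Aldoart1 and Aldoart2 are retrogenes of Aldoa that encode the sperm forms. Aldoart2 (chr12:55565239-55566896, plus strand, 1 exon) had 19153, 19060 and 19578 normalized counts in Ccdc117ko libraries, against 17797, 16933 and 16506 in WT libraries. All Ccdc117ko values lay above all WT values. The means were 19263 ± 276.5 in Ccdc117ko libraries and 17078 ± 657.6 in WT libraries (SD, n = 3 each), a 1.13-fold difference. The log2 fold change was 0.17 (SE 0.04, 95% interval 0.09 to 0.26, limma adjusted p = 0.034), so Aldoart2 rose in Ccdc117ko libraries.

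That call rests on small margins. With a block for replicate number, the limma adjusted p was 0.0772. The limma adjusted p was 0.0592 after length and GC correction (log2 fold change 0.14), and between 0.104 and 0.141 without any 1 library other than WT replicate 1, while without WT replicate 1 it was 0.0379. With only the 22878 genes of mean at least 10, of which 16.6% were called, the adjusted p of Aldoart2 was 0.0104. With that filter it stayed at 0.0427 or below without each library in turn except WT replicate 3, without which it was 0.0505. In the authors' deposited table its FDR was 5.29e-05.

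Aldoart1 (chr4:72850583-72852634, minus strand, 1 exon), the other retrogene, had 4252, 4367 and 4620 normalized counts in Ccdc117ko libraries, against 4437, 4355 and 4026 in WT libraries. The genotypes overlapped, with both the extremes in replicates numbered 3. The log2 fold change was 0.05 (SE 0.05, 95% interval -0.07 to 0.16, limma adjusted p = 0.641), and 0.03 after length and GC correction. That interval overlaps the one of Aldoart2, and the difference between the retrogenes was not tested.

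Glyceraldehyde-3-phosphate dehydrogenase makes the first NADH of the pathway, and Gapdhs encodes the sperm form, which carries a proline-rich extension that ties it to the fibrous sheath. Gapdhs (chr7:30729775-30743681, minus strand, 11 exons) had 68094, 67981 and 68378 normalized counts in Ccdc117ko libraries, against 63973, 64820 and 60995 in WT libraries. The genotypes did not overlap, and the Ccdc117ko libraries were closer together (SD 204.6) than the WT libraries (SD 2009). The log2 fold change was 0.11 (SE 0.03, 95% interval 0.03 to 0.18), which did not pass the test (limma adjusted p = 0.0874). With voom, limma's weighting for counts, on the recovered reads the adjusted p was 0.0342, and after length and GC correction the log2 fold change was 0.05 (adjusted p = 0.415). The authors' deposited table gave an FDR of 0.0121. The genes Tmem147os and Gm26935 overlap it on the opposite strand.

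Gapdh (chr6:125161715-125166467, minus strand, 7 exons), the somatic enzyme, had 4990, 4911 and 4839 normalized counts in Ccdc117ko libraries, against 5061, 5005 and 4782 in WT libraries. The genotypes overlapped throughout. Its log2 fold change was -0.01 (SE 0.04, 95% interval -0.10 to 0.08, limma adjusted p = 0.919). It was -0.07 after length and GC correction (adjusted p = 0.268) and 0.01 under upper-quartile scaling. When 63 genes that share at least 10% of its words were added, Gapdh held 81.7% of the sum and the difference was -0.03. The overlapping gene Iffo1 lies on the opposite strand.

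Phosphoglycerate kinase makes ATP at the next step. Pgk2, on chromosome 17, is an intronless copy of the X-linked Pgk1. Pgk2 (chr17:40207015-40208640, minus strand, 1 exon) had 31764, 32388 and 33013 normalized counts in Ccdc117ko libraries, against 30778, 32037 and 30058 in WT libraries. WT replicate 2 lay above Ccdc117ko replicate 1, so the genotypes overlapped. Its log2 fold change was 0.07 (SE 0.03, 95% interval -0.01 to 0.15, limma adjusted p = 0.306), and -0.02 after length and GC correction.

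Pgk1 (chrX:106187100-106203699, plus strand, 11 exons) was the lowest of the 10 genes, with 627, 587 and 585 normalized counts in Ccdc117ko libraries, against 555, 535 and 586 in WT libraries. WT replicate 3 lay within the Ccdc117ko range. Between genotypes Pgk1 had a log2 fold change of 0.10 (SE 0.06, 95% interval -0.04 to 0.25, limma adjusted p = 0.384), and 0.08 after length and GC correction. The copies Pgk1-rs7 and Gm5537 contain 67.9% and 67.7% of its words, and adding them left the difference at 0.10.

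Lactate dehydrogenase restores NAD+, and Ldhc encodes the germ cell subunit whose tetramer is the main form in sperm. Ldhc (chr7:46861203-46878142, plus strand, 8 exons) had 134335, 134490 and 134097 normalized counts in Ccdc117ko libraries, against 117755, 127237 and 128621 in WT libraries. The Ccdc117ko values were nearly equal and all above the WT values, of which replicate 1 was the lowest. The log2 fold change was 0.11 (SE 0.04, 95% interval 0.02 to 0.20), which did not pass the test (limma adjusted p = 0.133). It was 0.07 without WT replicate 1 and 0.03 after length and GC correction. The authors' deposited table gave an FDR of 0.0348.

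Ldhal6b (chr17:5417323-5418767, minus strand, 1 exon), a lactate dehydrogenase A-like gene, had 27732, 27089 and 27485 normalized counts in Ccdc117ko libraries, against 24496, 26342 and 26777 in WT libraries. The genotypes did not overlap, though Ccdc117ko replicate 2 and WT replicate 3 were close. Between genotypes the log2 fold change was 0.09 (SE 0.04, 95% interval -0.01 to 0.18, limma adjusted p = 0.245). It was 0.05 without WT replicate 1 and 0.02 after length and GC correction. Tmem242 overlaps it on the same strand and Gm29050 on the opposite one. None of its 50-base words lies in an annotated transcript of another gene, but unspliced and antisense reads were not checked.

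Ldha (chr7:46841475-46855627, plus strand, 8 exons), the somatic subunit, is the neighbour of Ldhc on chromosome 7. It had 36659, 36916 and 36845 normalized counts in Ccdc117ko libraries, against 35271, 37195 and 38106 in WT libraries. The Ccdc117ko values lay inside the WT range. Its log2 fold change was -0.00 (SE 0.04, 95% interval -0.08 to 0.08, limma adjusted p = 0.992), with -0.03 after length and GC correction and 0.02 under upper-quartile scaling. In WT replicate 1 all 3 lactate dehydrogenase genes were below their WT mean, by -0.08 for Ldhc, -0.08 for Ldhal6b and -0.06 for Ldha on the log2 scale.

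A ratio of isozymes within a library does not depend on how the libraries were scaled. The log2 ratio of Gapdhs to Gapdh was 3.77, 3.79 and 3.82 in Ccdc117ko libraries, against 3.66, 3.70 and 3.67 in WT libraries. For Ldhc to Ldha it was 1.87, 1.86 and 1.86 in Ccdc117ko libraries, against 1.74, 1.77 and 1.75 in WT libraries. For Ldhal6b to Ldha it was -0.40, -0.45 and -0.42 in Ccdc117ko libraries, against -0.53, -0.50 and -0.51 in WT libraries. In these ratios every Ccdc117ko library lay above every WT library. How often ratios of other gene pairs lie apart was not measured. Among single genes that averaged 1000 normalized counts or more, 50.3% had no overlap between genotypes.

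The ratio differences were 0.12 for Gapdhs to Gapdh, 0.11 for Ldhc to Ldha and 0.09 for Ldhal6b to Ldha. Each gave a two-sided exact permutation p of 0.10, which is the smallest that 3 against 3 libraries allow, so no ratio could pass 0.05. Ldhc and Ldhal6b share the same denominator. After length and GC correction the differences were 0.12, 0.05 and 0.05 in the same order. The log2 ratio of Pgk2 to Pgk1 was 5.66, 5.78 and 5.82 in Ccdc117ko libraries, against 5.79, 5.90 and 5.68 in WT libraries, and these overlapped (difference -0.04, exact permutation p = 0.7). The 63 genes that share at least 10% of the words of Gapdh were added to it, an alternative chosen after seeing the data. The Gapdhs difference was then 0.13.

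**Figure D3:**
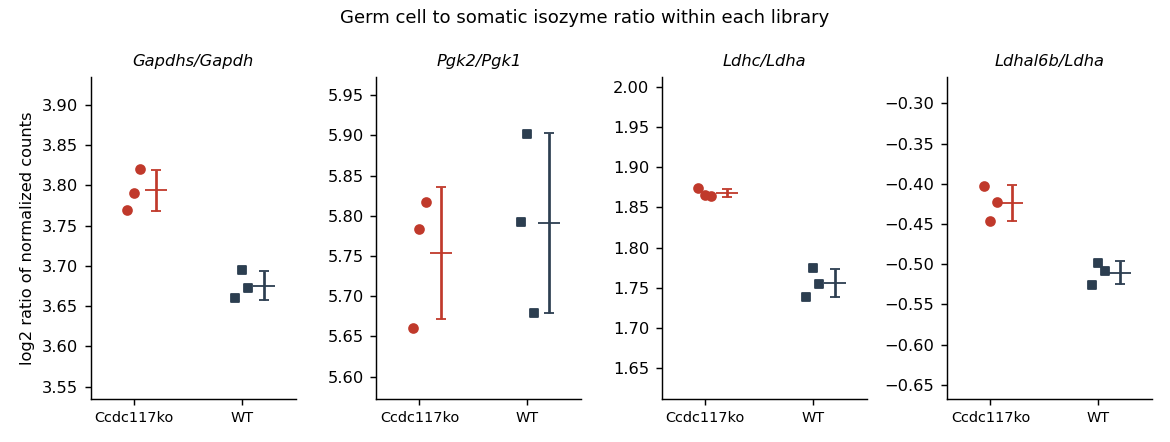
Log2 ratio of normalized counts of each germ cell isozyme to its somatic counterpart in every library (circles for Ccdc117ko at the left, squares for WT at the right), with the mean and SD beside the points; each panel spans 0.4 log2 units. The genotypes are apart for Gapdhs/Gapdh, Ldhc/Ldha and Ldhal6b/Ldha and overlap for Pgk2/Pgk1.

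The promoters of Ldhc and Ldha are printed because these genes are neighbours on chromosome 7 and form 1 of the 3 pairs whose ratio lay apart between genotypes. The stretches are the 100 bases before a RefSeq start on GRCm38.p6, plus strand, chr7:46861163-46861262 for Ldhc and chr7:46845704-46845803 for Ldha, with TGACG, the core of the cyclic AMP response element, in capitals, or the whole TGACGTCA.
Ldhc: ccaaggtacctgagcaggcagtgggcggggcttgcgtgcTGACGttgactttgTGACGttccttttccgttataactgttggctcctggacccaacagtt
Ldha: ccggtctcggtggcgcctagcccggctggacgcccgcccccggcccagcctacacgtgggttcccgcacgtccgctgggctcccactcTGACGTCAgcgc
Promoter windows of 250 bases before to 50 after a start were found for 9 of the 10 genes. On either strand, TGACG was present in 20.8% of all 32851 promoter windows and TGACGTCA, which contains TGACG on both strands, in 1.8%. The first Ldhc window held TGACG 2 times and the second did not hold it. The first Ldha window held TGACGTCA, and the second Ldha window and the first Gapdhs window held TGACG once each. These matches describe letters only.

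**Figure D4:**
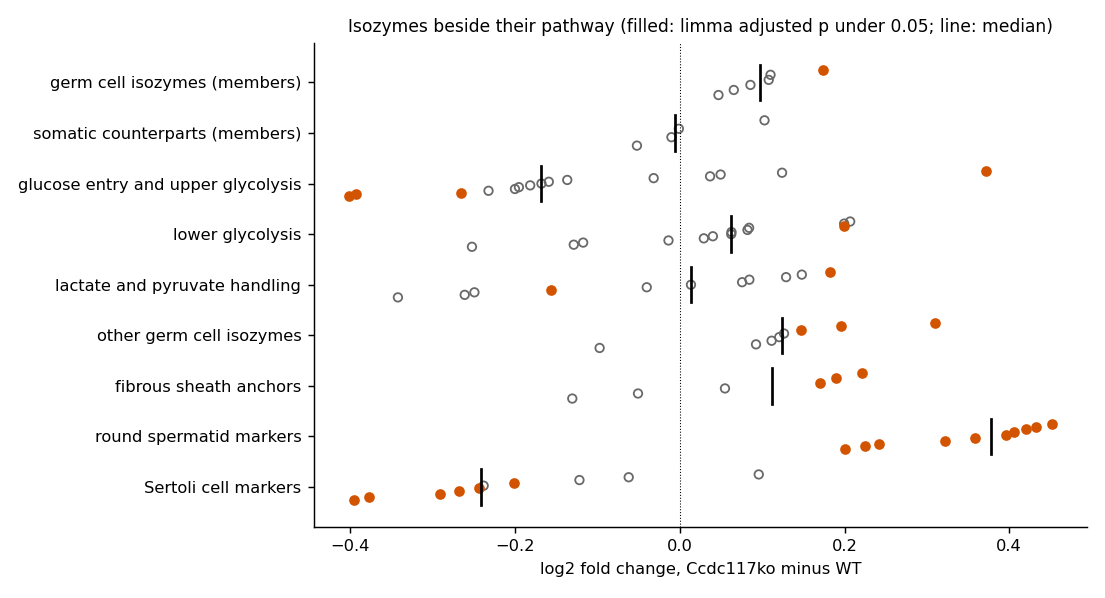
Log2 fold change (Ccdc117ko minus WT) of each gene in the germ cell isozymes, their somatic counterparts, the pathway lists and the round spermatid and Sertoli cell markers, with filled points for limma adjusted p under 0.05 and a line at each median. The germ cell isozymes have a median of 0.10, upper glycolysis of -0.17, round spermatid markers of 0.38 and Sertoli cell markers of -0.24.

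Among 15 genes of glucose entry and upper glycolysis, 1 was called higher and 3 were called lower. The median log2 fold change was -0.17 (-0.10 after length and GC correction). For this list and those below, the share called was 6.80% of all genes tested. It was 18.5% of genes that averaged 1000 normalized counts or more. Hk2, a hexokinase, had 877.4, 856.6 and 846.5 normalized counts in Ccdc117ko libraries, against 1166.6, 1044.1 and 1183.2 in WT libraries (log2 fold change -0.39, limma adjusted p = 0.0173). Slc2a1, the glucose transporter GLUT1, fell by 0.40 on the log2 scale (adjusted p = 0.0444), and Pfkl, a phosphofructokinase subunit, fell by 0.27 (adjusted p = 0.0499). These 3 genes had no overlap between genotypes, and of them Hk2 passed after length and GC correction (log2 fold change -0.26, adjusted p = 0.0317).

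Among 13 rows of lower glycolysis, 1 was called higher and none lower, with a median of 0.06 (-0.02 after correction). That gene was Bpgm, bisphosphoglycerate mutase, at 4520.1, 4527.1 and 4492.7 normalized counts in Ccdc117ko libraries, against 3769, 4025.8 and 4001.6 in WT libraries (log2 fold change 0.20, limma adjusted p = 0.0279). Aldoa, the parent of the aldolase retrogenes, had 2 rows in the table, with log2 fold changes of 0.06 and 0.04, neither of which was called.

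Among 11 genes of lactate and pyruvate handling, 1 was called higher and 1 lower, with a median of 0.01 (0.02 after correction). Slc16a7, the monocarboxylate transporter MCT2, rose by 0.18 log2 units (limma adjusted p = 0.0429). Ldhb, the heart subunit of lactate dehydrogenase, fell by 0.16 (adjusted p = 0.0406), with 3444.8, 3577 and 3547.4 normalized counts in Ccdc117ko libraries, against 3971.9, 3886.8 and 3923 in WT libraries. Both passed after length and GC correction, with values of 0.31 for Slc16a7 and -0.23 for Ldhb.

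Of 8 other germ cell isozymes of energy metabolism, 3 were called higher and none lower, with a median of 0.12. Of all genes averaging 1000 normalized counts or more, 18.5% were called. Cox6b2, a testis subunit of cytochrome c oxidase, rose by 0.31 (limma adjusted p = 0.0135), Gykl1, glycerol kinase-like, by 0.20 (adjusted p = 0.0304) and Pdha2, the germ cell pyruvate dehydrogenase subunit, by 0.15 (adjusted p = 0.0432). All 3 passed after length and GC correction, at 0.17, 0.15 and 0.14 in the same order, while the median of the list was then 0.00.

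Of 6 anchors and associated proteins of the fibrous sheath, 3 were called higher and none lower, with a median of 0.11 (0.06 after correction). Of the 3 not called, Akap4 was at -0.13 (limma adjusted p = 0.0553, no overlap between genotypes), Fscb at -0.05 and Akap3 at 0.05. With only genes of mean at least 10 tested, 3 of the list were called higher and 1 lower. The share called among all genes averaging 1000 normalized counts or more was 18.5%. Ropn1 rose by 0.22 (limma adjusted p = 0.0247), Spa17 by 0.19 (adjusted p = 0.0189) and Ropn1l by 0.17 (adjusted p = 0.0391), all proteins that bind A-kinase anchors in sperm. None of them was called after length and GC correction, with values of 0.09, 0.06 and 0.06 in the same order. When any 1 library other than WT replicate 1 was left out, at the filter of 0.5 normalized counts, limma called 2 to 12 genes of the whole table higher and 4 to 13 lower, none of them in the 5 pathway lists. With a mean of at least 10 and the same libraries left out, the whole table gave 936 to 1445 higher and 778 to 1394 lower.

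Marker lists of the testis cell types differed in how far they moved with genotype. Their counts of called genes stand beside 6.80% of all genes tested and 18.5% of genes averaging 1000 normalized counts or more. The 10 round spermatid markers, all detected, summed to 69184 to 72659 normalized counts in Ccdc117ko libraries, against 54922 to 60203 in WT libraries. Their median log2 fold change was 0.38, and 0.30 after length and GC correction, with 9 of 10 then called. The 10 elongating spermatid markers summed to 770283 to 814199 in Ccdc117ko libraries, against 728590 to 787327 in WT libraries, and these ranges overlapped. Of them 1 was called higher, and the median was 0.11, or -0.01 after correction. The pachytene spermatocyte markers, with 2 called higher and 1 lower, summed to 132727 to 136837 in Ccdc117ko libraries, against 130868 to 139816 in WT libraries, which also overlapped. Their median was -0.07, and -0.04 after correction. The 10 Sertoli cell markers summed to 47895 to 49835 in Ccdc117ko libraries, against 53031 to 54377 in WT libraries. Their median was -0.24 with 6 called lower, and -0.19 after correction with 3 called.

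The germ cell isozymes, at a median of 0.10 and a corrected median of 0.03, stood below the round spermatid markers on both scales. On the same scales the elongating spermatid markers stood at 0.11 and -0.01, and the other germ cell isozymes of energy metabolism at 0.12 and 0.00. The Leydig cell markers, with 3 called higher and 2 lower, had a median of 0.19 (0.07 after correction). The spermatogonial markers, with 3 called lower, had a median of -0.27 (-0.25 after correction). The peritubular, endothelial and macrophage markers, with 1 called higher and 2 lower (Myh11 and Mrc1), had a median of -0.20 (-0.09 after correction). They summed to 17921 to 18901 normalized counts in Ccdc117ko libraries, against 17150 to 17450 in WT libraries. The gene called higher, Aif1, averaged 12770 normalized counts in Ccdc117ko libraries and 10949 in WT libraries, the highest level in that list. Cd68, a macrophage marker, averaged 101.8 and 145.37 in the same order and was not called (limma adjusted p = 0.108). Aif1 was not called after correction (limma adjusted p = 0.102). The part of cell composition in the values of the 10 genes was not tested.

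Genes most like 3 of the isozymes over the 6 libraries, among 15160 genes that averaged 100 normalized counts or more, were picked by Pearson r of log2 values. For Gapdhs these were 4930551O13Rik (r = 0.999) and Smkr-ps (r = 0.995). For Pgk2 they were Ppm1e (r = 0.993), Wdr13 (r = 0.991) and Gm16726 (r = 0.991), and for Ldhc they were Gas8 (r = 0.993), Tmbim4 (r = 0.991) and 4933432K03Rik (r = 0.990). These r values are the highest of many and share the libraries and the 2 genotypes, so they are a description. No gene was named for more than 1 of the 3 isozymes.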

How the data were processed

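RNA-seq was done on 6 testis libraries, 3 Ccdc117ko and 3 WT, with a stranded mRNA kit, per the labels' protocols. STAR, DESeq2 and mm10 are named without version or role, per the submitters' processing notes. The authors deposited log2 values per gene and library, which the values themselves show to be log2(normalized count + 1): 100% of values under 500 reads were whole multiples of 1 step per library within 0.01. The authors also deposited their own log2 fold change, p-value and FDR, whose test is not stated in the file; these were used only where credited to their table.

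limma-trend (limma 3.58.1, R 4.3.3) was fitted to the deposited log2 values with genotype as its only term, on 32783 genes averaging 0.5 normalized counts or more. The design had allowed for counts; the log2 unit led to limma. P-values are two-sided and Benjamini-Hochberg adjusted over all genes tested. Differences are on that same log2 scale. Isozyme ratios were compared with an exact permutation test. Alternatives were other scalings, pseudocounts (0.5 and 5), filters, voom on the recovered reads, a replicate block, each library left out, and removal of a spline trend of log2 transcript length and GC (knots at the 25, 50 and 75 percentiles) from each library. The median of all genes was 0.00. Replicates of a genotype differed beyond sampling noise (chi-square per degree of freedom 4.68 to 7.50), so none was a duplicate. Coordinates came from GENCODE M21 on GRCm38, which matched 36551 of 36652 identifiers. Shared sequence was measured over 50-base words, as the percent of those in a gene's longest transcript that also lie in other genes. Alignments used Biopython 1.88 in Python 3.11.15. The fit was tested on simulated data. Of each pathway list, up to 4 called genes with the smallest adjusted p were named, and for 3 isozymes the 3 genes with the most similar values. Values of 2 genes that these rules select are not reported here. Members, lists and rules were chosen with earlier results of these data known.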

Additional observations from a re-analysis of the deposited data

How the results depend on the processing

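The counts of called genes, 1212 higher and 1016 lower, depended on the filter and the libraries. With a mean of at least 10 they were 1911 higher and 1887 lower, and 589 were lower after length and GC correction. Leaving out 1 library gave 2 to 789 higher and 4 to 479 lower, with the largest counts without WT replicate 1. With a mean of at least 10 and 1 library left out, chosen after seeing the data, they were 2041 and 1980 without WT replicate 1, and 936 to 1445 higher and 778 to 1394 lower without each of the others. The replicate block gave 364 and 339, and an adjusted p of 0.0772 for Aldoart2. It changed the call of no other member. Deviations of same-numbered libraries correlated at -0.003, -0.004 and 0.006. These values show no sign of a pairing by number, but so few libraries cannot exclude one. With the pairing, the ratio differences were unchanged at 0.118, -0.037, 0.111 and 0.087 (Gapdhs, Pgk2, Ldhc and Ldhal6b), with exact permutation p of 0.25 or above, the smallest that 3 pairs allow. Signs turned for Hk1 (0.054) and Pgk2 (-0.016) after length and GC correction, and for Gapdh (0.0077) and Ldha (0.017) under upper-quartile scaling. With 1 library left out, Gapdh ranged from -0.035 to 0.0061, Ldha from -0.033 to 0.023, and the Pgk2 to Pgk1 ratio difference from -0.093 to 0.018. The cause of these changes was not tested. The log2 fold changes of Aldoart1, Pgk1, Ldhc and Ldhal6b kept their sign and their side of the threshold under every alternative run.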
